A study of Arabidopsis thaliana with 6 samples.

Results

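The *FLC* clade of Arabidopsis and *SVP* were examined in shoot apices of WT and of plants carrying insertions in the B3-domain genes *VAL1* and *VAL2*. The 7 genes were taken by their locus identifiers, out of 24292 genes in the table of counts, by a rule that uses no measured value, although earlier results of these data were known when the genes were chosen. They are *FLC* (AT5G10140), *FLM* (AT1G77080, also named *MAF1*), *MAF2* (AT5G65050), *MAF3* (AT5G65060), *MAF4* (AT5G65070), *MAF5* (AT5G65080) and *SVP* (AT2G22540). Libraries of RNA-seq were made from 3 genotypes, namely Col-0 as WT, the SALK insertion line *val1-2* (*val1*) and the SAIL insertion line *val2-1* (*val2*), each with 2 replicates, 6 libraries in all. All plants share the Col-0 background, were 6 wk of age and had grown in soil at 22 °C under SD, with 8 h of light and 16 h of dark. Each library was made from poly(A) RNA of 0.5 g of dissected apices. How many plants were pooled, and whether the replicates came from separate sowings, is not given in the sources used here, so the p values below measure only the spread between these libraries. Each mutant is represented by 1 insertion allele.

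MADS-domain proteins bind DNA as dimers at CArG boxes, and those of the *FLC* clade delay flowering. FLC pairs with SVP, and the pair represses the florigen gene *FT* in the leaf and *SOC1* and *FD* at the apex. FLM also works with SVP and responds to ambient temperature through alternative splicing, and MAF2 keeps short spells of cold from starting flowering. MAF3 and MAF4 repress flowering as well, whereas *MAF5* is known for being induced, not silenced, during vernalization. Col-0 carries a weak allele of the *FLC* activator *FRIGIDA* (*FRI*), so that *FLC* is low in this accession without cold. VAL1 and VAL2 read the RY element, whose core is CATGCA on one strand and reads TGCATG on the other, and in *FLC* VAL1 binds RY elements in the first intron, where Polycomb silencing starts.

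Because the question concerns RY-binding proteins, the RY cores of the 7 genes were located in the TAIR10.1 sequence and annotation of RefSeq, which has the nuclear chromosomes of TAIR10. All 6 clade members hold an RY core inside intron 1, between 550 and 700 bases after the annotated start of the gene. The windows around it are shown 5′ to 3′ on the strand of the gene, with the RY cores in capitals, since they are the stretches that the members share. They lie at chr5:3178810-3178884 (minus strand) in *FLC*, and on the plus strand at chr1:28956143-28956217 in *FLM*, chr5:25982857-25982931 in *MAF2*, chr5:25987970-25988044 in *MAF3*, chr5:25992763-25992837 in *MAF4* and chr5:25998058-25998132 in *MAF5*.
*FLC* intron 1: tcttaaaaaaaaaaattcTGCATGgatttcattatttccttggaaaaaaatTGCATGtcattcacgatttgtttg
*FLM* intron 1: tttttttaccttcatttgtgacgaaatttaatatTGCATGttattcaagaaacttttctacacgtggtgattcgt
*MAF2* intron 1: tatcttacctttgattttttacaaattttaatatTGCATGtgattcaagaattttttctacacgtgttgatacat
*MAF3* intron 1: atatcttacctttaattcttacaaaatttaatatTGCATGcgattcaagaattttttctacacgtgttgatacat
*MAF4* intron 1: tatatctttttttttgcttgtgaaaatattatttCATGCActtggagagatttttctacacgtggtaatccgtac
*MAF5* intron 1: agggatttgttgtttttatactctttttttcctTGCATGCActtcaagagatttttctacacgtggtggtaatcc

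*FLC* differs from the others in holding a pair of RY cores in this window, 33 bases apart, at 582 and 615 bases after its start. *FLM*, *MAF2*, *MAF3*, *MAF4* and *MAF5* share the word TTTTCTACACGTG just downstream of the RY core, which ends in the G-box CACGTG. *FLC* and *SVP* lack this word. Among 24839 protein-coding genes that reach through 550 to 750 bases after the start, these 5 were the only ones with the word, on either strand, in that stretch (0.0201%), and 2.00% held a G-box there. An RY core in the stretch of 151 bases from 550 to 700 was found in 4.43% of the 25121 genes that span it. Both stretches were chosen after the matches were seen, and the word was taken as the longest one shared by these 5 windows. Its presence in all 5 was thus fixed in advance, and its rarity elsewhere is a description and not a test. A match describes letters and not a bound site.

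*MAF5* held the most RY cores of the 7 genes, 6 from 1000 bp upstream to the gene end, all inside intron 1. As many or more were found in 5.82% of 2938 protein-coding genes with a region of like length. *FLC* had 3, and 58.4% of genes of like length had as many or more. *FLM* and *MAF4* had 2 each, and *MAF2* and *MAF3* had 1 each. *SVP* had 4, outside that window, at 548 bases upstream of its start, in intron 6 and at 2 places in its coding exons. For *SVP*, 15.9% of genes of like length had as many or more. A second pair in *MAF5* (chr5:25998908-25998982, plus strand) and the intronic run of *SVP* (chr2:9582622-9582696, plus strand), which holds 3 overlapping matches counted as 1 core, are shown for comparison with the pair of *FLC*.
*MAF5* second pair: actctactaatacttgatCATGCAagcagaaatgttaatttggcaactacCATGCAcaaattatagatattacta
*SVP* intron 6: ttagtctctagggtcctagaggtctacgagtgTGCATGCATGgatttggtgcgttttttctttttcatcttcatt

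**Figure D1:**
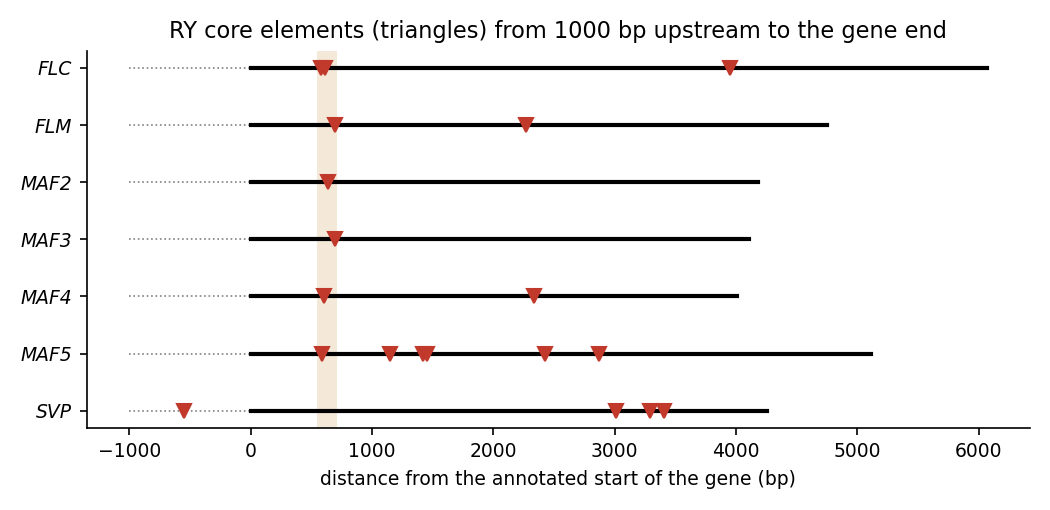
RY cores (triangles) along the 7 genes, as distance in bp from the annotated gene start, with the gene as a solid line and the 1000 bp upstream dotted. The shaded stretch from 550 to 700 bp holds a core in all 6 clade members and none in *SVP*, and *MAF5* has 6 cores in all.

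The 6 libraries held between 22635808 and 33474422 estimated counts in genes. Expression is given as CPM (counts scaled to library size, after TMM normalization), and comparisons come from 1 edgeR quasi-likelihood fit of all libraries to 21140 genes. A gene passed the test when its Benjamini-Hochberg adjusted p over all these genes was below 0.05, and it was a DEG when its change was also at least 2-fold. *VAL1* had 40.3 and 55.4 CPM in WT and 12.5 and 15.7 CPM in *val1*. *VAL2* had 39.9 and 40.9 CPM in WT but 149.8 and 163.9 CPM in *val2*, so it was higher and not lower there, and those replicates are called the libraries labelled *val2*. The meristem genes *STM*, *KNAT1*, *KNAT6* and *CLV1* were expressed in every library (*STM* at 58.0 to 70.7 CPM), the stem cell marker *CLV3* had at most 0.195 CPM, and the sum of the flower organ markers in the table stayed at or below 0.808 CPM.

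*FLC*, *MAF4* and *MAF5* rose in *val1*, *MAF3* and *SVP* rose by less than 2-fold, and *FLM* and *MAF2* did not pass the test. In all, 3 of the 7 genes were DEGs in *val1* against WT, all 3 higher, where 5.89% of all genes tested were DEGs with higher expression. Without the fold requirement 5 of 7 passed as higher, against 23.6% of all genes, and 0 of 7 as lower, against 22.1%. The median log2 fold change of the 7 was 0.51, where that of all genes tested was 0.038. All 7 passed the filter on low counts.

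*MAF5* had the largest change of the 7. Its expression was 0.953 and 1.20 CPM in the WT replicates, 16.6 and 17.5 CPM in *val1*, and 1.57 and 0.987 CPM in the libraries labelled *val2*. Both *val1* replicates were more than 10 times above every other library, and WT and the libraries labelled *val2* overlapped. The log2 fold change in *val1* was 3.97 (SE 0.22, adjusted p = 2.57e-06), a 15.7-fold rise, the 68th largest rise among the genes tested. It rested on 24 and 37 counts in WT and 410 and 540 in *val1*. None of the 50-base words of its exons occurs elsewhere in the genome.

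*FLC*, the central repressor of the clade, had 5.08 and 5.40 CPM in WT, 27.1 and 22.0 CPM in *val1*, and 5.20 and 6.54 CPM in the libraries labelled *val2*. The *val1* replicates lay apart from all 4 other libraries, which overlapped among themselves. Its log2 fold change in *val1* was 2.22 (SE 0.16, adjusted p = 8.55e-06), a 4.66-fold rise, from 128 and 167 counts in WT to 668 and 677 in *val1*. An antisense noncoding RNA gene (AT5G01675) covers all of *FLC* on the opposite strand and was itself given between 2 and 10 counts per library. The library kit keeps the strand, but whether the counting used it is not given in the sources used here.

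*MAF4*, the neighbour of *MAF5*, differed most between replicates of WT and of *val1*, relative to its mean, among the 7 genes. It had 2.03 and 3.33 CPM in WT, 9.56 and 6.39 CPM in *val1*, and 2.98 and 2.38 CPM in the libraries labelled *val2*. In CPM, though not relative to the mean, the replicates of *val1* differed by more than those of any other genotype. Both *val1* replicates stayed above all other libraries. Its log2 fold change was 1.56 (SE 0.29, adjusted p = 0.00209), a 2.94-fold rise with a 95% confidence interval from 0.91 to 2.21 on the log2 scale.

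*MAF3* had 7.59 and 6.53 CPM in WT, 10.2 and 9.80 CPM in *val1*, and 7.29 and 7.90 CPM in the libraries labelled *val2*. It was higher in both *val1* replicates than in the other 4 libraries. The difference was 1.42-fold, a log2 fold change of 0.51 (SE 0.14, adjusted p = 0.0146). This call was lost with DESeq2 (adjusted p = 0.0648), without WT replicate 2 (adjusted p = 0.115) and without *val1* replicate 1 (adjusted p = 0.0611). *MAF3* is also the member with the most sequence in common with its relatives, since 2.46% of its 50-base exon words occur in *FLM* or *MAF2*, and its coding sequence is 93.6% identical to that of *MAF2* over the aligned bases.

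*SVP*, the partner of FLC and FLM, had 64.0 and 66.3 CPM in WT, 81.5 and 80.8 CPM in *val1*, and 82.1 and 70.1 CPM in the libraries labelled *val2*. Every mutant library exceeded both WT libraries. In *val1* the log2 fold change was 0.32 (SE 0.087, adjusted p = 0.0158), a 1.25-fold rise, and the call was lost without WT replicate 1 (adjusted p = 0.0892), without WT replicate 2 (adjusted p = 0.0568) or without *val1* replicate 1 (adjusted p = 0.0564).

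*FLM* and *MAF2* were abundant in every library. *FLM* had 57.6 and 51.3 CPM in WT, 49.8 and 45.3 CPM in *val1*, and 50.04 and 48.5 CPM in the libraries labelled *val2*. The WT replicates were the highest of the 6, but the log2 fold change of -0.19 in *val1* did not pass the test (adjusted p = 0.0944). For *MAF2* the values were 40.2 and 42.7 CPM in WT, 40.6 and 35.3 CPM in *val1*, and 42.6 and 43.5 CPM in the libraries labelled *val2*, with overlapping groups. Its log2 fold change in *val1* was -0.13 (adjusted p = 0.266), with a 95% confidence interval from -0.33 to 0.072. Scaling by library size alone, which moved the median of all genes in *val1* from 0.038 to 0.25, turned both values to 0.019 for *FLM* and 0.085 for *MAF2*.

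**Figure D2:**
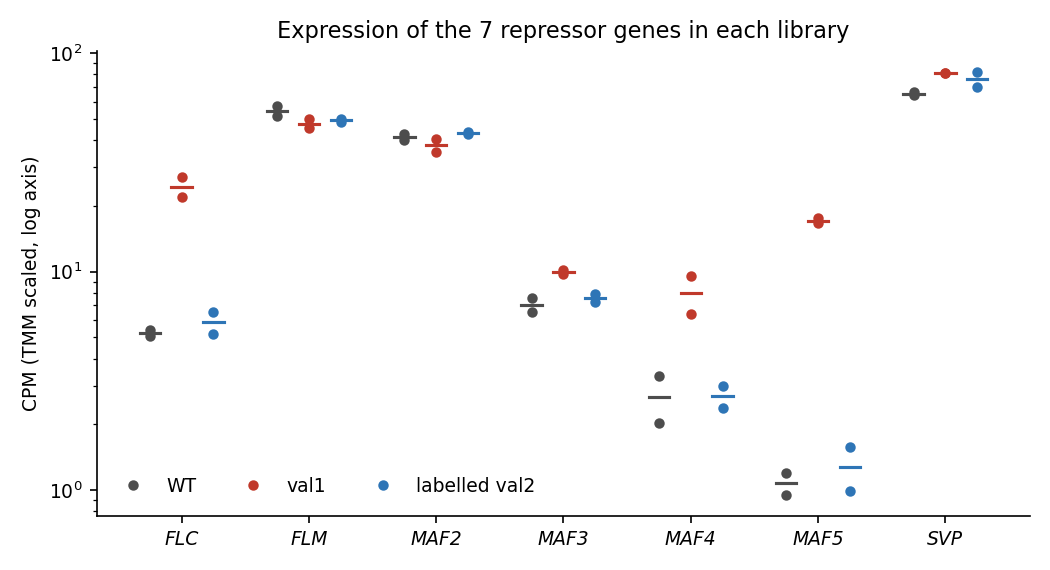
Expression of the 7 genes in each library, in CPM on a log axis, with points for the 2 replicates and bars for their mean. The *val1* points of *FLC* (22.0 and 27.1), *MAF4* (6.39 and 9.56) and *MAF5* (16.6 and 17.5) lie above every other library, and *FLM* and *MAF2* stay between 35.3 and 57.6 in all 6.

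In the libraries labelled *val2* 0 of the 7 genes passed edgeR's test against WT, in either direction, where 8.69% of all genes passed as higher, 10% as lower and 0.918% were DEGs with higher expression. At an unadjusted p below 0.05 there was 1 gene, *SVP*, whose log2 fold change was 0.22 (adjusted p = 0.107). DESeq2 and limma on the deposited TPM values also passed 0 genes, and scaling by library size alone passed *SVP* (log2 fold change 0.30, adjusted p = 0.0403). The others had log2 fold changes of 0.16 (*FLC*), -0.14 (*FLM*), 0.053 (*MAF2*), 0.11 (*MAF3*), -0.0066 (*MAF4*) and 0.25 (*MAF5*), with adjusted p between 0.285 and 0.992. The 95% confidence intervals reached from -0.22 to 0.53 for *FLC*, -0.68 to 0.67 for *MAF4* and -0.35 to 0.85 for *MAF5*. Differences within these bounds are not excluded by these libraries. Since the *VAL2* count was higher in these libraries, and reads along the gene were not examined, no effect of a loss of *VAL2* is read from them.

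The comparison of *val1* with the libraries labelled *val2* tests directly whether the genotypes differ. It called the same 3 genes, *FLC* (log2 fold change 2.06, adjusted p = 1.80e-05), *MAF4* (1.56, adjusted p = 0.00264) and *MAF5* (3.73, adjusted p = 5.58e-06), as DEGs higher in *val1*, where 5.17% of all genes were. With *MAF3* (0.40, adjusted p = 0.0469) 4 of 7 passed as higher, against 17.7% of all genes, and 0 as lower, against 18%. The call of *MAF3* was lost in 10 of 14 alternative fits. *SVP* had a log2 fold change of 0.093 between these genotypes (95% confidence interval from -0.10 to 0.29), *FLM* one of -0.052 (-0.25 to 0.14) and *MAF2* one of -0.18 (-0.38 to 0.018). Without *val1* replicate 1 *MAF2* was -0.29 and passed as lower (adjusted p = 0.0466). The comparisons with WT share the WT libraries, and this one shares the libraries of both mutants with them, so they are not independent of each other.

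**Figure D3:**
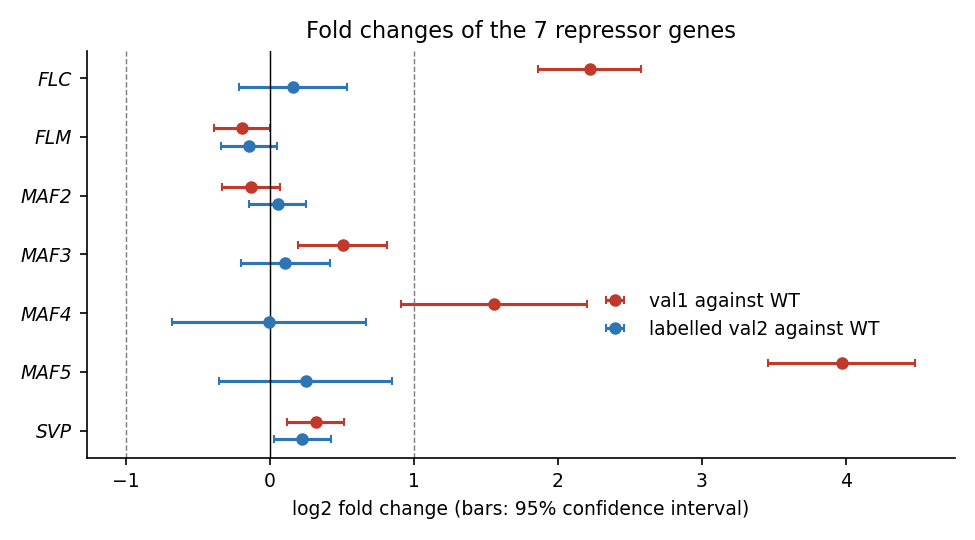
log2 fold changes against WT of the 7 genes, for *val1* (red) and the libraries labelled *val2* (blue), with bars for the 95% confidence interval and dashed lines at a 2-fold change. *MAF5* (3.97), *FLC* (2.22) and *MAF4* (1.56) lie past the dashed line in *val1*, and no gene does in the libraries labelled *val2*.

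To set the genes beside each other, CPM was divided by the length in kb of the representative transcript, the one with the longest coding sequence. In WT the order of these levels was *FLM* (49.7 ± 4.02), *MAF2* (38.7 ± 1.64), *SVP* (36.4 ± 0.880), *MAF3* (6.11 ± 0.647), *FLC* (5.03 ± 0.213), *MAF4* (2.65 ± 0.913) and *MAF5* (1.36 ± 0.217 CPM per kb, SD, n = 2). No neighbours in this order overlapped, although *MAF2* at 37.5 and *SVP* at 37.0 CPM per kb came close. In *val1* the order became *SVP* (45.3 ± 0.275), *FLM* (43.4 ± 2.89), *MAF2* (35.4 ± 3.52), *FLC* (23.5 ± 3.46), *MAF5* (21.6 ± 0.814), *MAF3* (8.66 ± 0.252) and *MAF4* (7.90 ± 2.22). There *SVP* and *FLM*, *FLC* and *MAF5*, and *MAF3* and *MAF4* did not differ beyond their spread. In the libraries labelled *val2* the order was that of WT except that *SVP* (42.5 ± 4.73) stood above *MAF2* (40.1 ± 0.638), and *SVP* overlapped with both *MAF2* and *FLM* (45.0 ± 0.992). The order depends on the length used. With all annotated exons as the length, *FLC* came first among the clade in *val1* and *MAF5* second, above *MAF2* and *FLM*.

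The summed level of the 6 clade members was 104.7 and 102.3 CPM per kb in WT, 148.7 and 132.4 in *val1*, and 101.6 in both libraries labelled *val2*. The mean difference of 37.0 CPM per kb between *val1* and WT was made up of 20.2 from *MAF5*, 18.5 from *FLC*, 5.25 from *MAF4* and 2.55 from *MAF3*, with -3.27 for *MAF2* and -6.28 for *FLM*, neither of which passed the test. As a share of the sum, *FLC* took 4.86% ± 0.285 in WT and 16.7% ± 1.09 in *val1*, and *MAF5* took 1.32% ± 0.231 and 15.5% ± 1.85 (SD, n = 2). The share of *FLM* was 48.0% ± 3.10 in WT and 30.9% ± 0.483 in *val1*, and that of *MAF2* 37.4% ± 2.19 and 25.2% ± 0.440. With 2 libraries against 2, an exact permutation test cannot go below p = 0.33, so the shares are given without a test. The sum, its make-up and the shares also depend on the unit. Over all annotated exons, which include retained introns of *FLM* and *MAF2* isoforms, the sum was 36.2 ± 0.0861 in WT and 68.2 ± 5.91 in *val1*, and on the deposited TPM values it was 154.4 ± 0.222 and 230.6 ± 25.1. Over all exons the share of *FLC* was 12.3% in WT and 30.4% in *val1*, that of *MAF5* was 2.42% and 20.5%, that of *MAF2* was 33.9% and 16.4%, and that of *FLM* was 33.6% and 15.6%.

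**Figure D4:**
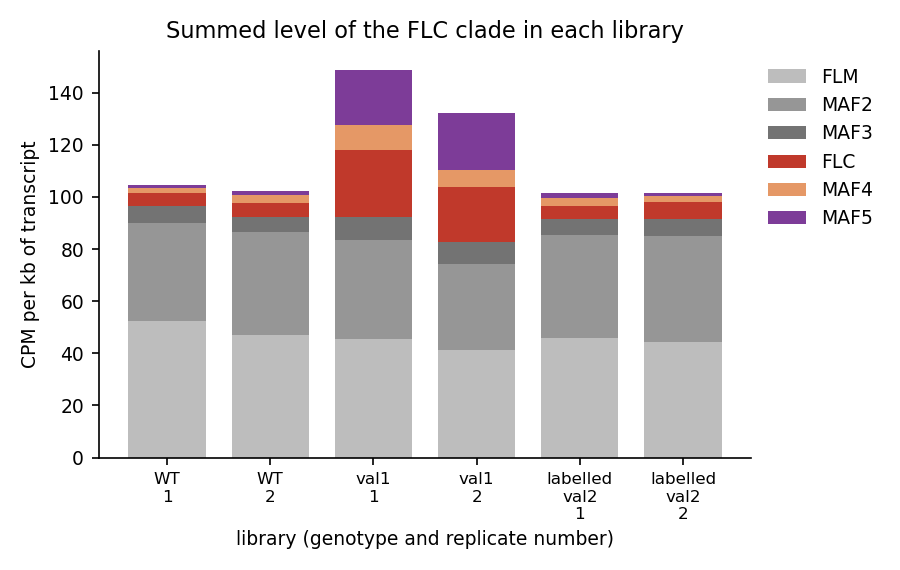
Stacked levels of the 6 *FLC* clade genes in each library, in CPM per kb of the representative transcript. The bars reach 148.7 and 132.4 in *val1* and between 101.6 and 104.7 in the other 4 libraries, with *FLC*, *MAF4* and *MAF5* stacked on top of *MAF3*, *MAF2* and *FLM*.

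Ratios within a library do not depend on how libraries are scaled. The counts of *FLC* were 0.0968 ± 0.0119 of those of *FLM* in WT and 0.514 ± 0.0417 in *val1*, while the libraries labelled *val2* had 0.119 ± 0.0218 (SD, n = 2). Those of *MAF5* were 0.0258 ± 0.00304, 0.453 ± 0.0619 and 0.0298 ± 0.0100 of those of *MAF2*, its relative in the same cluster. For *MAF3* over *MAF2* the ratios were 0.171 ± 0.0253, 0.264 ± 0.0186 and 0.176 ± 0.00718. In each of these ratios both *val1* replicates lay above the 4 other libraries.

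*MAF2*, *MAF3*, *MAF4* and *MAF5* follow each other on the plus strand of chromosome 5, from 25982254 to 26002619, and their log2 fold changes in *val1* stood in the order of the genes, at -0.13, 0.51, 1.56 and 3.97. Beyond *MAF5* lies *BST1*, a phosphatase gene of root hair growth, which was also a DEG in *val1* (log2 fold change 1.68, SE 0.45, adjusted p = 0.0145) from counts of only 13 to 93. It had 1.43 and 0.420 CPM in WT and 2.76 and 3.02 CPM in *val1*. Its log2 fold change for the libraries labelled *val2* was 1.12 (adjusted p = 0.123). On the other side of the cluster, the gene next to *MAF2* (AT5G65040) had a log2 fold change of -0.15 (adjusted p = 0.573). *FLC* stands alone on chromosome 5, from 3173382 to 3179448, and the tested gene nearest to it (AT5G10150) had a log2 fold change of 0.15 (adjusted p = 0.405).

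Over the 5 protein-coding genes on each side of *FLC*, *FLM*, *SVP* and the *MAF* cluster, 31 of 40 were tested in *val1* against WT, 7 passed as higher and 9 as lower, where 23.6% and 22.1% of all genes did. There were 5 DEGs among them, 2 higher, where 5.89% of all genes tested were, and 3 lower. The share of DEGs with lower expression over all genes is not given here, so the 3 are only listed. Besides *BST1* these were *SKP2B* near *FLM* (log2 fold change 1.54), an F-box gene that rose, and 3 genes that fell, which were the trehalose phosphate phosphatase gene *TPPI* near *FLC* (-1.56), AT1G77060 (-1.49) and the alcohol dehydrogenase gene *ADH1* near *FLM* (-1.001). The median of the 31 genes was 0.14, where that of all genes tested was 0.038. In the libraries labelled *val2* 4 passed as higher and 2 as lower, against 8.69% and 10% of all genes, with 0 DEGs.

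**Figure D5:**
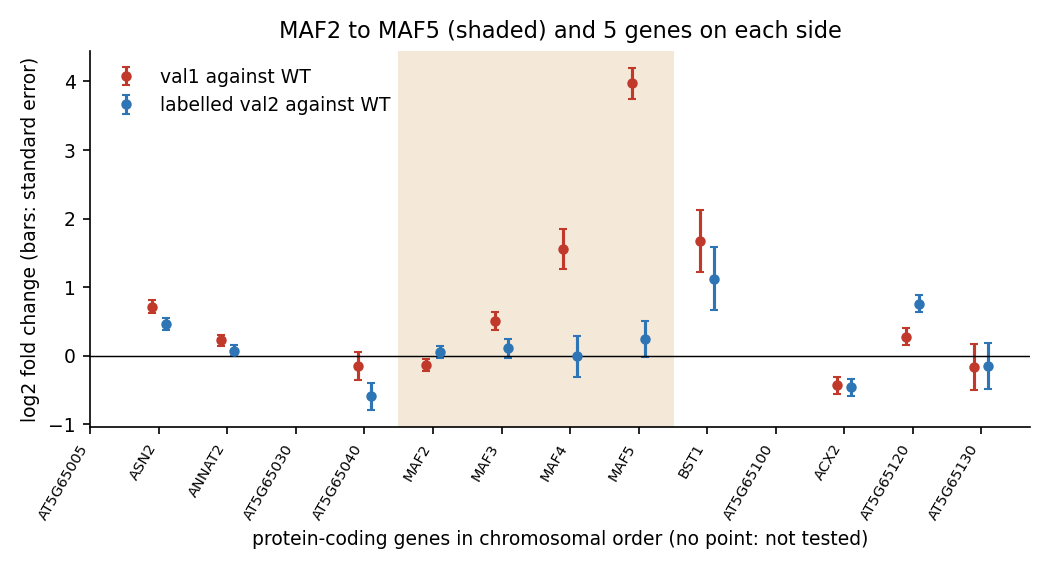
log2 fold changes against WT of *MAF2* to *MAF5* (shaded) and the 5 protein-coding genes on each side in chromosomal order, with bars for the standard error. In *val1* the values are -0.13, 0.51, 1.56 and 3.97 from *MAF2* to *MAF5* and 1.68 for *BST1*, and genes without a point were not tested.

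The genes whose expression across the 6 libraries was most like that of *FLC*, by the root mean square difference of mean-centred log2 CPM among 15573 genes with a mean of at least 5 CPM over the libraries, were the B-box gene *BBX15* (0.166), AT3G53370 (0.166) and AT3G22970 (0.209). Outside *val1*, *BBX15* and AT3G53370 had between 3.77 and 5.86 CPM. Their averages there were below 5 CPM, so both reached the mean required only through *val1*. The genes most like *MAF5* were AT1G16705 (0.310), AT5G17780 (0.430) and AT2G37670 (0.516). Each of these had at most 2.11 CPM outside *val1* and reached a mean of 5 CPM only through *val1*. Nearest to *SVP* were AT4G00810 (0.0164), the biotin synthesis gene *BIOF* (0.0282) and AT2G03667 (0.0291), which, like *SVP*, were higher in every mutant library than in WT. Among the 7 genes themselves *FLM* and *MAF2* were the closest (0.113) and *MAF2* and *MAF5* the farthest apart (1.88), while *FLC* was nearest to *MAF4* (0.387). These distances describe 6 libraries of 3 genotypes.

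Activators of *FLC* include the FRI complex, the PAF1 complex, the SWR1 complex and histone methyltransferases. Of 18 such genes tested, 2 passed as higher in *val1* and 1 as lower, against 23.6% and 22.1% of all genes, with 0 DEGs and a median log2 fold change of 0.012. *ATX1*, an H3K4 methyltransferase, rose (log2 fold change 0.67, adjusted p = 0.00134), as did *PIE1*, a SWR1 subunit (0.42, adjusted p = 0.0034), and *ELF8*, a PAF1 subunit, fell (-0.29, adjusted p = 0.0136). *ATX1* and *PIE1* also passed as higher in the libraries labelled *val2* (0.70 and 0.30, adjusted p = 0.0045 and 0.0386). Their part in the change of *FLC* was not tested. *FRI* itself had a log2 fold change of 0.18 in *val1* (adjusted p = 0.530).

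In the autonomous pathway, whose genes hold *FLC* down, 4 of 13 passed as higher in *val1* and 2 as lower, with 0 DEGs and a median of 0.12. As shares of the list these counts lie near the 23.6% and 22.1% of all genes. The RNA-binding genes *FPA* (log2 fold change -0.50, adjusted p = 0.00143) and *FCA* (-0.32, adjusted p = 0.0081) fell. *REF6*, an H3K27 demethylase that promotes flowering (0.34, adjusted p = 0.00591), and *PCFS4*, an RNA processing factor (0.32, adjusted p = 0.00939), rose, as did *FVE* and *LDL1* (0.27 and 0.39, adjusted p = 0.0139 and 0.0255). *FVE* (0.42, adjusted p = 0.0058) and *REF6* (0.25, adjusted p = 0.04998) also passed as higher in the libraries labelled *val2*. Of the vernalization and Polycomb genes 9 of 10 were tested, 0 passed as higher and 2 as lower, with a median of -0.032. Those lower were *VRN5* (-0.27, adjusted p = 0.0142) and *VRN1* (-0.27, adjusted p = 0.0212), and the share lower is near the 22.1% of all genes. The gene not tested, *VIN3*, had 5 and 11 counts in *val1* and 0 in every other library.

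Of the targets of FLC and SVP 5 of 8 genes were tested, and *FT*, *TSF* and *SEP3* were not analysed here. In *val1* 3 fell and 1 rose, against 22.1% lower and 23.6% higher over all genes, with a median log2 fold change of -0.90. *FD*, the partner of FT at the apex, had 6.91 and 8.47 CPM in WT, 3.97 and 3.34 CPM in *val1*, and 9.35 and 9.97 CPM in the libraries labelled *val2*. Its log2 fold change of -1.08 in *val1* (SE 0.17, adjusted p = 0.000827) made it a DEG, with no overlap between the groups. *SOC1*, a MADS gene that promotes flowering, fell from 3.46 CPM in both WT replicates to 1.46 and 2.17 CPM in *val1* (log2 fold change -0.92, adjusted p = 0.016). *TEM2*, a repressor of flowering, fell in *val1* (-0.90, adjusted p = 0.000647) and also in the libraries labelled *val2* (-0.69, adjusted p = 0.00898). *SPL15*, a promoter of flowering at the apex, rose (1.46, adjusted p = 0.0174) from 13 to 39 counts per library. *GA20OX2*, a gibberellin synthesis gene, had at most 22 counts and did not pass against WT (1.81, adjusted p = 0.112), but was a DEG higher in *val1* than in the libraries labelled *val2* (2.76, adjusted p = 0.0466).

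Among other MADS genes of flowering, 8 of 12 were tested, and in *val1* 1 rose and 3 fell, against 23.6% and 22.1% of all genes, with a median log2 fold change of -0.23. *AGL15*, a repressor of flowering outside the *FLC* clade, had 2.70 and 3.81 CPM in WT, 12.0 and 10.8 CPM in *val1*, and 4.00 and 3.20 CPM in the libraries labelled *val2*, and it was a DEG in *val1* (1.80, adjusted p = 0.000119). *AGL24*, the close relative of *SVP* that promotes flowering, stayed between 70.9 and 86.2 CPM (log2 fold change -0.093 in *val1*, adjusted p = 0.410). *SOC1*, *FUL* (-0.96, adjusted p = 0.0442) and *AGL42* (-0.39, adjusted p = 0.0175), which promote flowering, fell. *FUL* had only 50 and 43 counts in WT and 21 and 27 in *val1*. In the libraries labelled *val2* its log2 fold change was -0.77 and did not pass (adjusted p = 0.140), where those of *SOC1* and *AGL42* were -0.043 and 0.081. *AGL19* passed as higher in the libraries labelled *val2* (0.86, adjusted p = 0.0063) and was a DEG lower in *val1* than in them (-1.22, adjusted p = 0.000343).

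Because apices hold several cell types, and fewer cells of a type cannot be told apart from less RNA per cell in bulk tissue, marker sums were compared beside these changes. The 4 mesophyll markers summed to between 6664 and 7174 CPM in WT, 7806 and 8139 CPM in *val1*, and 5467 and 5681 CPM in the libraries labelled *val2*. The 6 of 7 meristem markers in the table summed to between 169.1 and 182.6 CPM in WT, 199.4 and 213.2 CPM in *val1*, and 179.7 and 201.5 CPM in the libraries labelled *val2*. The phloem markers *SUC2* and *AHA3* summed to between 86.0 and 86.9 CPM in WT, 72.3 and 82.9 CPM in *val1*, and 87.5 and 89.8 CPM in the libraries labelled *val2*, and *SUC2* fell in *val1* (log2 fold change -0.45, adjusted p = 0.0155). Mesophyll and meristem sums were thus higher in *val1* than in WT, and their part in the changes of the 7 genes was not tested. Of the single markers, *KNAT2* (0.69, adjusted p = 0.0119), *CLV1* (0.33, adjusted p = 0.00893), *LHCB1.1* (0.29, adjusted p = 0.00505) and *RBCS1A* (0.21, adjusted p = 0.0253) also passed, as higher, in *val1*. The mesophyll genes *CA1* (-1.10, a DEG), *RCA* (-0.57) and *RBCS1A* (-0.25) passed as lower in the libraries labelled *val2*. The root meristem marker *WOX5* had 0.318 and 0.323 CPM in WT and 0.932 and 1.46 CPM in *val1* (a DEG at 1.90, adjusted p = 0.0185). It had only 8 and 10 counts in WT and 23 and 45 in *val1*, and the other 2 markers of that list were not analysed here.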

How the data were processed

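Per the labels, poly(A) RNA was sequenced from 6 libraries, 2 per genotype, with a kit that keeps the strand. The authors used cutadapt for trimming, STAR for mapping to TAIR10 and stringtie for gene abundance on Araport11. They deposited estimated counts, written as whole numbers without normalization, and TPM values (16383 genes), which served as an alternative only. The 77 entries without a gene identifier, at most 0.00266% of a library, were left out. Counts were tested in R 4.3.3 with edgeR 4.0.16 (filterByExpr, TMM factors from 0.925 to 1.09, quasi-likelihood test, 1 fit with a mean per genotype, Benjamini-Hochberg adjustment over 21140 genes). Unless another tool is named, every adjusted p comes from this test. The biological coefficient of variation was 10.7%. Alternatives were DESeq2 1.42.0, its size factors, library size alone, no filter, only the 2 genotypes compared, limma 3.58.1 on log2(TPM + 1) and log2(TPM + 0.1) for 14831 genes, a replicate block, and leaving out each library. Named genes are the 7 members, *VAL1*, *VAL2*, the DEGs of each list and otherwise at most 4 of its genes with the smallest p, flanking DEGs, cell type markers, and the 3 genes nearest in pattern to *FLC*, *MAF5* and *SVP*. *FRI*, *FVE*, *LDL1*, *VIN3*, *AGL24*, *AT5G65040* and *AT5G10150* were named outside this rule, after their values were seen. The members and lists were chosen with earlier results of these data known. RY cores and sequences come from TAIR10.1 of RefSeq, read with Python 3.11.15 and Biopython 1.88, and plots were drawn with matplotlib 3.10.9.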

Additional observations from a re-analysis of the deposited data

How the results depend on the processing

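The number of members called DEGs in *val1* against WT was 3 in every alternative that kept the fold requirement. In each of those it was 3 for *val1* against the libraries labelled *val2* and 0 for those libraries against WT. Without the fold requirement the main fit passed 5, 4 and 0 in the same order. When single libraries were left out, the log2 fold changes in *val1* against WT ranged from 2.06 to 2.37 for *FLC*, 1.24 to 1.97 for *MAF4*, 3.83 to 4.15 for *MAF5*, 0.40 to 0.61 for *MAF3*, 0.29 to 0.34 for *SVP*, -0.28 to -0.11 for *FLM* and -0.23 to -0.029 for *MAF2*. Values near 0 changed sign. In *val1* against WT scaling by library size alone gave 0.019 for *FLM* and 0.085 for *MAF2*. In *val1* against the libraries labelled *val2*, *FLM* was 0.085 with that scaling, 0.14 on log2(TPM + 1) and 0.14 on log2(TPM + 0.1), and from -0.13 to 0.010 with libraries left out, where *SVP* went from -0.018 to 0.20. In the libraries labelled *val2* against WT, *MAF4* was 0.074 with library size alone, 0.071 on log2(TPM + 1), 0.091 on log2(TPM + 0.1), 0.0030 with only the 2 genotypes and from -0.31 to 0.41 with libraries left out, *FLC* went from -0.013 to 0.32 and *MAF5* from -0.13 to 0.53. The cause was not tested.

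Replicate numbers were not taken to pair libraries, since deviations of same-numbered replicates correlated at between 0.0309 and 0.0406. With the replicate block the log2 fold change of *FLM* in *val1* was -0.19 and passed (adjusted p = 0.0473), and the members called numbered 3, 0 and 3. In *val1* against WT, list counts that moved by over 1.5 times were those of the vernalization list, 2 to 0 on either TPM scale and from 0 to 3 with libraries left out, the *FLC* activators, 3 to 6 with library size alone, the targets, 4 to as few as 2, and the other MADS genes, 4 to as few as 1. Depth limits *MAF5* in WT most, with 24 and 37 counts.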
